A study of Homo sapiens with 4 samples.

Results

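The genes described here are 35 genes of sterol synthesis, uptake and efflux, chosen by name for their role. They are 35 of the 19626 genes in the deposited tables. They comprise 8 enzymes of the mevalonate part of the pathway, 11 enzymes that make squalene and turn it into cholesterol, 6 genes that control the transcription factor SREBF2, 5 genes of sterol uptake, transport and esterification, and 5 genes of the liver X receptor (LXR) and sterol efflux arm. RNA was sequenced from ES-2 cells, an established line from a human ovarian clear cell carcinoma that carries an endogenous fusion of YAP1 with MAML2. Both groups were transduced with a pLKO.1 lentivirus on consecutive days, for 8 h each, in medium with fetal bovine serum. The control virus carried a nontargeting shRNA (shCtl, n = 2 biological replicates), and the other carried shM2-3 (n = 2), an shRNA against a MAML2 sequence that the fusion shares, so both the fusion and native MAML2 were targeted. The labels place RNA isolation 96 h after the first infection, and the study's methods give a shorter time and a different infection schedule. The model is limited to 1 cell line and 1 MAML2 shRNA, and effects of the fusion and of native MAML2 cannot be told apart in it.

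Cholesterol is built from acetyl-CoA through mevalonate, the isoprenoid farnesyl diphosphate, squalene and a series of sterols. SREBF2 is the main transcription factor of the genes for these enzymes. It is made as a membrane protein that SCAP escorts from the endoplasmic reticulum to the Golgi when sterols are low, where the proteases MBTPS1 and MBTPS2 release the active part. INSIG1 and INSIG2 hold SCAP back when sterols are plentiful. The LXR receptors NR1H2 and NR1H3 sense oxysterols and drive genes of efflux, such as the membrane transporters ABCA1 and ABCG1, and MYLIP, a ubiquitin ligase that lowers lipoprotein receptors. Serum in culture medium brings lipoproteins, which cells can use as a source of cholesterol.

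Libraries held between 20051083 and 23978660 estimated counts, that is, reads assigned to a gene, which need not be whole numbers. MAML2, the targeted gene, had counts of 1436 and 1402 with shCtl, against 634 and 553 with shM2-3, and its log2 fold change was -1.40 (SE 0.0688). Transcripts of the fusion add to these counts, since they contain MAML2 sequence. Levels are given as RPKM, the count scaled to transcript length and to the mapped reads of the library. Of the markers used for clear cell carcinoma, NAPSA and PAX8 were at or under 0.369 RPKM in every library, whereas ARID1A was between 13.4 and 17.4 RPKM. Of the epithelial markers, KRT7, KRT8 and KRT18 were at or above 29.1 RPKM in every library, and EPCAM, CDH1 and KRT19 were at or under 0.361. The 6 epithelial markers summed to 637 RPKM in both shCtl libraries and to 312 and 316 in shM2-3, and the 6 fibroblast markers, nearly all PDGFRA, to 7.95 to 8.01 in shCtl and 25.1 to 25.7 in shM2-3. The 3 endothelial markers summed to 9.21 and 10.3 RPKM in shCtl and to 5.49 and 4.95 in shM2-3, most of it CDH5, whereas PECAM1 of that list went from 0.0376 and 0.0308 RPKM in shCtl to 1.31 and 0.923 RPKM in shM2-3. The 2 mesenchymal markers differed in direction, with log2 fold changes of -0.44 for VIM and 0.34 for CDH2. Markers of other cells were also read, among them those of macrophages and hepatocytes, which carry much sterol traffic. The 4 hepatocyte markers read (ALB, APOA1, APOB and TTR, with no row for TTR) summed to at most 0.112 RPKM in shCtl and 0.0751 in shM2-3. Of the 7 leukocyte and macrophage markers, with no row for MS4A1, PTPRC stayed at or under 0.0173 RPKM in every library. That list summed to 57.5 to 58.3 RPKM in shCtl and 42.03 to 42.98 in shM2-3, nearly all of it CD68. Within it CSF1R went from 0.01996 and 0.0785 RPKM in shCtl to 1.88 and 2.01 RPKM in shM2-3. CD14 went from 0.0777 and 0.102 RPKM in shCtl to 0.890 and 0.866 RPKM in shM2-3, whereas CD68 fell (log2 fold change -0.51). LYZ had 0.945 and 0.423 RPKM in shCtl and 2.34 and 0.129 RPKM in shM2-3. The part of any of these markers in the sterol results was not tested.

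Expression was compared with edgeR's quasi-likelihood test over the 12157 genes whose RPKM exceeded 1 in 1 library or more, and p-values were adjusted over all of them (Benjamini-Hochberg). All but 1 of the 35 sterol genes, 34, were tested. The exception was ABCG1. Genes were called when the fold change reached 2 and the adjusted p did not exceed 0.05. Of the 34, 14 were called lower in shM2-3, beside 8.93% of all genes tested, and 1 was called higher, beside 9.24%. Without the fold limit, 27 of 34 were lower at an adjusted p of 0.05 or less, beside 36.4% of all genes tested, and 3 were higher, beside 36.3%. The remaining 4 were GGPS1, SCAP, NR1H2 and NR1H3. The RPKM of both shM2-3 libraries lay below both shCtl libraries for 27 of the 34 genes, beside 47.1% of all genes tested, and above both for 6, beside 38.9%. In GGPS1 the groups overlapped. The median log2 fold change of the 34 was -0.90, beside -0.0037 over all genes tested. It was -1.27 for the 19 synthesis enzymes and -0.44 for the other 15. In RNA from bulk cultures, less transcript in every cell and fewer cells that carry the transcript cannot be told apart.

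**Figure D1:**
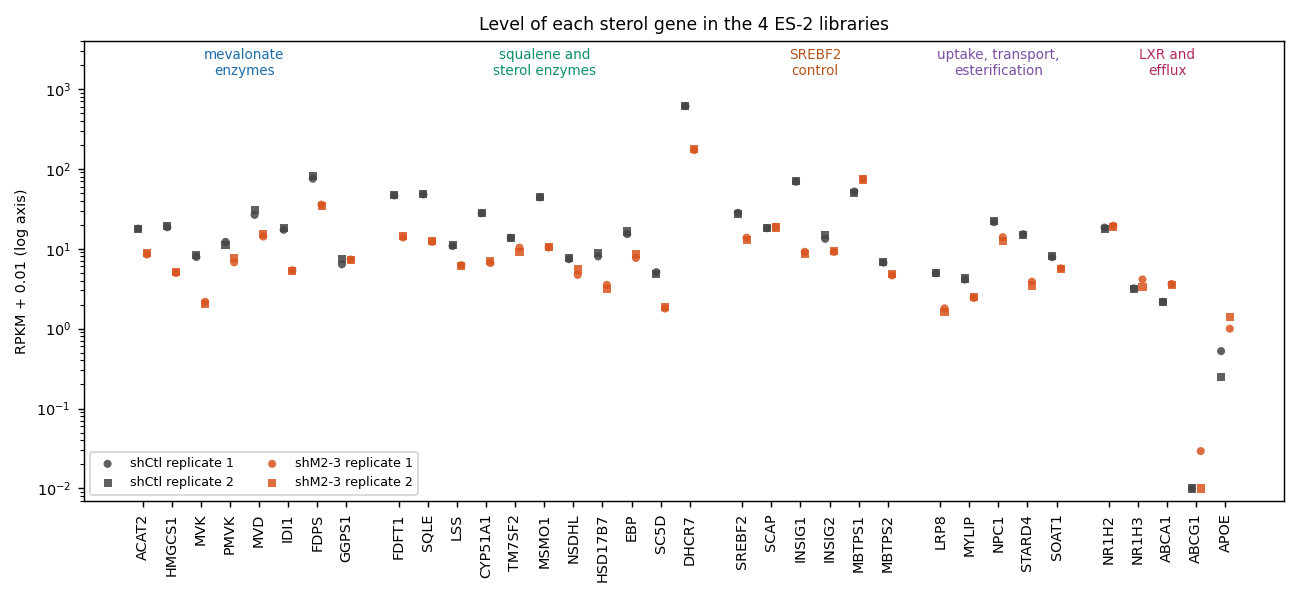
Level of the 35 sterol genes in each library, as RPKM + 0.01 on a log axis, with the shCtl replicates in grey and the shM2-3 replicates in orange. DHCR7 stands above every other gene in shCtl, most enzymes are lower in both shM2-3 libraries, and ABCG1 sits at the bottom of the axis.

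**Figure D2:**
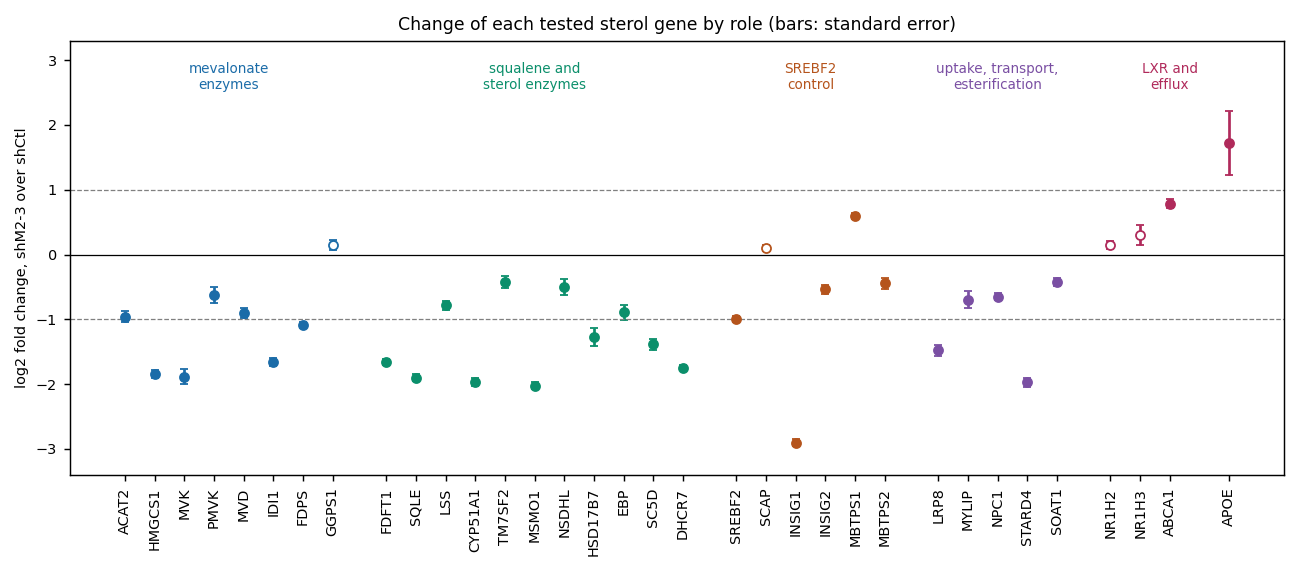
log2 fold change of each tested sterol gene (shM2-3 over shCtl, n = 2 each), with bars for the standard error and dashed lines at a fold change of 2. Open points (GGPS1, SCAP, NR1H2 and NR1H3) had an adjusted p above 0.05, and INSIG1 lies lowest at -2.90.

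The 19 synthesis enzymes together summed to 1015 and 1042 RPKM in the shCtl libraries and to 333 and 342 RPKM in the shM2-3 libraries. Their counts came to 3225 and 3299 CPM (counts scaled to a common library total) with shCtl and to 1056 and 1077 CPM with shM2-3. DHCR7 alone gave 59.8% and 59.3% of the summed RPKM in shCtl and 51.4% and 51.8% in shM2-3. Without DHCR7, the other 18 enzymes summed to 407 and 424 RPKM in shCtl and to 162 and 165 in shM2-3. The lower total in shM2-3 thus did not rest on DHCR7 alone.

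In the mevalonate part, 4 of 8 enzymes were called lower, beside 8.93% of all genes tested. At an adjusted p of 0.05 or less, 7 of 8 were lower, beside 36.4%, and none was higher, beside 36.3%. With DESeq2 these counts were also 4 and 7, beside 1057 and 3939 of all 12157 genes tested. No enzyme was higher at an unadjusted p of 0.05 or less in edgeR's test, beside 4529 of the 12157. The 4 called were MVK, HMGCS1, IDI1 and FDPS.
MVK, the kinase that phosphorylates mevalonate, had 7.86 and 8.27 RPKM in shCtl and 2.16 and 2.001 RPKM in shM2-3. Both shM2-3 libraries were far below both shCtl libraries, and MVK was 3.702-fold lower, with a log2 fold change of -1.89 (SE 0.115). It lies at chr12:109573255-109598125 in hg38 and shares exonic bases with MMAB on the opposite strand, whose counts also fell (log2 fold change -2.11), and the libraries carry no strand.
HMGCS1, the cytosolic synthase that makes HMG-CoA at chr5:43287470-43313512, had 18.5 and 19.4 RPKM in shCtl and 4.96 and 5.13 RPKM in shM2-3. Its groups did not overlap, and its log2 fold change was -1.85 (SE 0.0583), with an adjusted p of 5.08e-12. IDI1, which interconverts the isomers of the first isoprenoid, had 17.2 and 18.1 RPKM in shCtl and 5.35 and 5.303 RPKM in shM2-3. It fell by 1.66 on the log2 scale (SE 0.0643).
FDPS joins these units into farnesyl diphosphate and was the most abundant mevalonate enzyme per length. Its levels were 75.1 and 81.2 RPKM in shCtl and 35.6 and 34.7 RPKM in shM2-3. It was 2.13-fold lower, just past the fold limit.
Beneath that limit were ACAT2, the cytosolic thiolase of the first step, MVD, which forms the first isoprenoid, and PMVK, the second kinase. ACAT2 had 17.8 and 17.5 RPKM in shCtl and 8.43 and 8.897 RPKM in shM2-3, and its log2 fold change was -0.96 (SE 0.0854). That value was narrowly past the fold limit without shM2-3 replicate 2 (-1.0032) and with limma on log2(RPKM + 0.1) (-1.019). ACAT2 shares exonic bases with TCP1 on the opposite strand, which had a log2 fold change of -0.80, and with SOD2 (0.19) and SOD2-OT1 (not tested), also on that strand. MVD had 26.5 and 30.7 RPKM in shCtl and 14.2 and 15.1 RPKM in shM2-3, with a log2 fold change of -0.90 (SE 0.0812), and it passed the limit narrowly without shCtl replicate 1 (-1.0002). PMVK showed the smallest fall of the 7, at -0.62 (SE 0.126).
GGPS1 stands at a branch, where farnesyl diphosphate is extended for protein prenylation and not committed to sterols. It had 6.36 and 7.41 RPKM in shCtl and 7.32 and 7.24 RPKM in shM2-3. Both shM2-3 values lay within the shCtl range, and the log2 fold change was 0.15 (SE 0.0808), with an adjusted p of 0.121 in edgeR's test. ARID4B, which shares exonic bases with it on the opposite strand, had a log2 fold change of 0.33. Without shCtl replicate 2 the GGPS1 value was 0.26, with an adjusted p of 0.0156 in that test.

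Downstream of farnesyl diphosphate, all 11 enzymes from FDFT1 to DHCR7 were lower at an adjusted p of 0.05 or less, beside 36.4% of all genes tested. Of the 11, 7 were called, beside 8.93% of all genes called lower. DESeq2 also gave 11 lower and 7 called, beside 3939 and 1057 of all 12157 genes tested. The 7 called were MSMO1, CYP51A1, SQLE, DHCR7, FDFT1, SC5D and HSD17B7.
FDFT1, squalene synthase, takes the first step committed to sterols. It had 46.4 and 46.98 RPKM in shCtl and 13.8 and 14.5 RPKM in shM2-3 and fell by 1.66 on the log2 scale (SE 0.0469). SQLE, squalene epoxidase, had 47.8 and 48.1 RPKM in shCtl and 12.2 and 12.4 RPKM in shM2-3. The replicates of each group lay close together, and SQLE was 3.73-fold lower. LSS closes the rings to give lanosterol, and its fall was smaller. Its levels were 10.8 and 11.2 RPKM in shCtl and 6.22 and 6.01 RPKM in shM2-3, a log2 fold change of -0.78 (SE 0.0649).
CYP51A1 and MSMO1, which remove methyl groups from lanosterol and its products, fell most among the enzymes. CYP51A1 had 27.7 and 27.8 RPKM in shCtl and 6.61 and 6.98 RPKM in shM2-3, and was 3.91-fold lower. It shares exonic bases on the opposite strand with AKAP9, which had a log2 fold change of -0.63, and with CYP51A1-AS1 (not tested). MSMO1 (chr4:165327667-165343164) had 43.9 and 44.4 RPKM in shCtl and 10.3 and 10.4 RPKM in shM2-3, and was 4.06-fold lower, with a log2 fold change of -2.02 (SE 0.0588) and an adjusted p of 2.13e-12. The other genes of the same demethylation steps had smaller log2 fold changes. NSDHL, the dehydrogenase of that complex, had 7.38 and 7.73 RPKM in shCtl and 4.696 and 5.49 RPKM in shM2-3 and a log2 fold change of -0.50 (SE 0.122). HSD17B7, its ketoreductase, had 8.01 and 8.895 RPKM in shCtl and 3.51 and 3.15 RPKM in shM2-3, and fell by 1.27 on the log2 scale (SE 0.136). The pseudogene HSD17B7P2 is also in the table and had counts of 92 and 96 with shCtl, against 33 and 36 with shM2-3. Reads that match HSD17B7 and HSD17B7P2 alike would be lost, since the authors removed ambiguous reads, so the HSD17B7 value is uncertain. IDI1, FDPS and CYP51A1 also have named pseudogenes.
TM7SF2, a sterol reductase, showed the smallest fall of the 11. Its levels of 13.7 and 13.8 RPKM in shCtl and 10.3 and 9.16 RPKM in shM2-3 gave a log2 fold change of -0.43 (SE 0.0925). It overlaps VPS51 on the same strand, and VPS51 had a log2 fold change of 0.06.
In the last steps, EBP, the isomerase, had 15.2 and 16.4 RPKM in shCtl and 7.64 and 8.67 RPKM in shM2-3 and a log2 fold change of -0.89 (SE 0.118), short of the fold limit. SC5D, the desaturase, was 2.61-fold lower, from 5.08 and 4.79 RPKM in shCtl to 1.77 and 1.83 RPKM in shM2-3. DHCR7, which reduces 7-dehydrocholesterol to cholesterol, was by far the most abundant gene of the 35. It lies at chr11:71428193-71452868 and had counts of 37902 and 39246 with shCtl, against 13081 and 12244 with shM2-3. In RPKM these were 607 and 618 RPKM in shCtl and 171 and 177 RPKM in shM2-3. DHCR7 was 3.36-fold lower, with a log2 fold change of -1.75 (SE 0.03697) and, after INSIG1, the smallest adjusted p of the 34 (9.38e-14, edgeR). Within the 19 enzymes, those with a higher shCtl level tended to fall more (Pearson r = -0.44 and Spearman rho = -0.51 across genes). This describes genes of the same 4 libraries and not independent points. The shCtl level also enters both quantities, which by itself favours a negative coefficient.

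**Figure D3:**
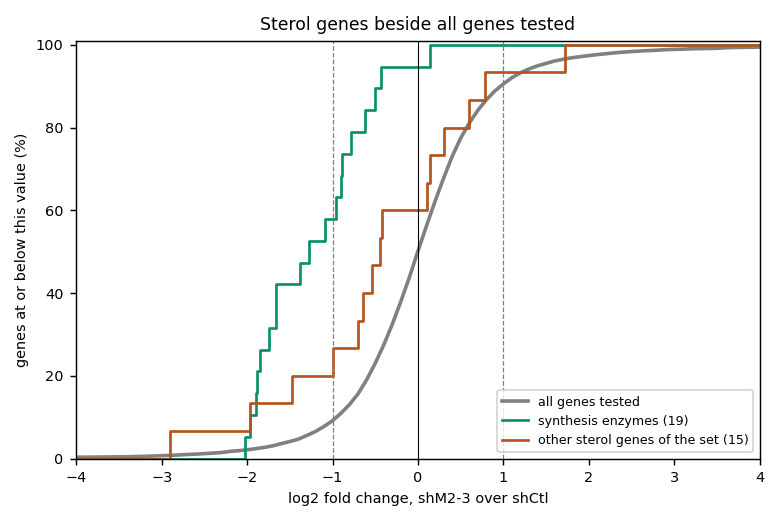
Share of genes (%) at or below each log2 fold change (shM2-3 over shCtl) for the 19 synthesis enzymes, the other 15 sterol genes tested and all 12157 genes tested, with dashed lines at a fold change of 2. From its lowest gene at -2.02 upward, the enzyme curve lies above the curve of all genes, with 18 of 19 enzymes below 0.

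Among the 6 genes of SREBF2 control the values differed widely, from -2.90 for INSIG1 to 0.60 for MBTPS1. Of these 6 genes, 4 were lower at an adjusted p of 0.05 or less, beside 36.4% of all genes tested, and 1 was higher, beside 36.3%. Only INSIG1 was called, beside 8.93% of all genes called lower and 9.24% called higher.
SREBF2 (chr22:41833105-41907306) had counts of 3797 and 3773 with shCtl, against 2264 and 1921 with shM2-3. Its RPKM was 28.1 and 27.5 in shCtl and 13.7 and 12.9 in shM2-3, with no overlap. The log2 fold change was -0.999 (SE 0.0471, adjusted p = 3.42e-10 from edgeR), just short of the limit. It was past the limit in 7 of 15 fits of the same data, among them those without shCtl replicate 2 (-1.019) and without shM2-3 replicate 1 (-1.040). SCAP, the escort of SREBF2, did not show this fall. It had 18.04 and 18.1 RPKM in shCtl and 18.8 and 18.4 RPKM in shM2-3, and its log2 fold change was 0.11 (SE 0.04897), with an adjusted p of 0.0675 in edgeR's test. The ratio of SCAP to SREBF2 RPKM was therefore 0.641 and 0.659 in the shCtl libraries and 1.37 and 1.43 in the shM2-3 libraries.
INSIG1 fell more than any other of the 34 genes. It lies at chr7:155297776-155310235 and had counts of 5126 and 5315 with shCtl, against 834 and 708 with shM2-3. In RPKM it went from 68.7 and 70.1 to 9.14 and 8.58. That is 7.48-fold lower, a log2 fold change of -2.90 (SE 0.0505) with an adjusted p of 1.61e-14 (edgeR), and the range over all 15 fits was -2.96 to -2.84. INSIG2, its paralogue with the same role, had 13.3 and 14.8 RPKM in shCtl and 9.104 and 9.38 RPKM in shM2-3 and fell by 0.54 on the log2 scale (SE 0.0705). The ratio of INSIG1 to INSIG2 RPKM was 5.18 and 4.75 in shCtl and 1.004 and 0.914 in shM2-3, so the pair went from INSIG1 in excess to near parity. The difference of the log2 ratio was -2.37, and an exact permutation test gave a two-sided p of 0.333, the smallest that 2 against 2 libraries allow.
The proteases differed in direction. MBTPS1, which makes the first cut, had 51.98 and 50.3 RPKM in shCtl and 74.3 and 73.4 RPKM in shM2-3 and a log2 fold change of 0.60 (SE 0.0406). MBTPS2, which makes the second, had 6.69 and 6.83 RPKM in shCtl and 4.62 and 4.87 RPKM in shM2-3 and a log2 fold change of -0.44 (SE 0.0817). Both passed edgeR's test, with adjusted p-values of 1.66e-08 and 2.50e-04. The ratio of MBTPS1 to MBTPS2 RPKM was 7.77 and 7.37 in shCtl and 16.1 and 15.1 in shM2-3. MBTPS2 shares exonic bases with YY2, which was at or under 0.397 RPKM in every library.

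All 5 genes of uptake, transport and esterification were lower at an adjusted p of 0.05 or less, beside 36.4% of all genes tested. STARD4 and LRP8 were called, beside 8.93% of all genes called lower. None of the 5 was higher at an unadjusted p of 0.05 or less in edgeR's test, beside 4529 of all 12157 genes tested. DESeq2 also had 5 lower and none higher, beside 3939 and 3989 of the 12157.
STARD4, a soluble carrier that moves cholesterol between membranes, had 15.2 and 14.8 RPKM in shCtl and 3.85 and 3.45 RPKM in shM2-3. It was 3.91-fold lower, with a log2 fold change of -1.97 (SE 0.0685), close to that of CYP51A1. LRP8, a receptor of the lipoprotein receptor family that binds apolipoprotein E, had 4.93 and 4.91 RPKM in shCtl and 1.78 and 1.58 RPKM in shM2-3, and was 2.79-fold lower. In both genes the replicates lay near each other and far from the other group.
NPC1, which exports cholesterol from lysosomes, had 21.5 and 22.1 RPKM in shCtl and 13.9 and 12.6 RPKM in shM2-3 and a log2 fold change of -0.65 (SE 0.0549). MYLIP had 4.1 and 4.23 RPKM in shCtl and 2.41 and 2.498 RPKM in shM2-3 and a log2 fold change of -0.70 (SE 0.129). SOAT1, which esterifies cholesterol for storage, had 7.81 and 8.06 RPKM in shCtl and 5.67 and 5.63 RPKM in shM2-3, the smallest fall of these 5 at -0.42 (SE 0.0616). NPC1 shares exonic bases with RMC1 on the opposite strand, which also fell (log2 fold change -0.51). STARD4 shares them with STARD4-AS1, which rose (1.70).

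Of the 4 tested genes of the LXR and efflux arm, 2 were higher at an adjusted p of 0.05 or less, beside 36.3% of all genes tested. None was lower at an unadjusted p of 0.05 or less in edgeR's test, beside 4528 of all 12157 genes tested. DESeq2 also gave 2 higher and none lower, beside 3989 and 3939 of the 12157. MYLIP, another gene that LXR drives, was counted with uptake and was lower (-0.70). ABCA1, which passes cholesterol to apolipoprotein A-I, had 2.15 and 2.16 RPKM in shCtl and 3.61 and 3.49 RPKM in shM2-3. Both shM2-3 libraries were above both shCtl libraries, and ABCA1 was 1.72-fold higher (log2 fold change 0.79 (SE 0.0747), adjusted p = 4.87e-07 from edgeR), under the fold limit.
APOE, the secreted apolipoprotein that takes up cellular cholesterol, was the only one of the 34 called higher, from few reads. It entered the test through shM2-3 replicate 2 alone, the single library with an RPKM above 1, so the filter favoured a higher value. It had counts of 17 and 8 with shCtl, against 40 and 51 with shM2-3, or 0.514 and 0.238 RPKM in shCtl and 0.988 and 1.39 RPKM in shM2-3. The log2 fold change was 1.72 (SE 0.496) with an adjusted p of 0.00691 (edgeR). Without shM2-3 replicate 2 it was 1.45 with an adjusted p of 0.0626 in the same test. It was 2.37 without shCtl replicate 1, 1.26 without shCtl replicate 2 and 1.955 without shM2-3 replicate 1, and on the log2(RPKM + 1) scale it was 0.67 and under the fold limit.
The receptors themselves did not pass the test. NR1H2 had 18.4 and 17.7 RPKM in shCtl and 19.4 and 18.6 RPKM in shM2-3, with a log2 fold change of 0.14 (SE 0.0643) and an adjusted p of 0.0612 in edgeR's test. NR1H3 had 3.18 and 3.13 RPKM in shCtl and 4.12 and 3.298 RPKM in shM2-3, with a log2 fold change of 0.30 (SE 0.1598) and an adjusted p of 0.107 in that test. Without shM2-3 replicate 2 the NR1H3 value was 0.44, with an adjusted p of 0.048 in edgeR's test. NR1H3 shares exonic bases with ACP2 on the opposite strand, which rose by 1.18. ABCG1 drew no reads with shCtl, and with shM2-3 its counts were 2 and 0. All 4 libraries were at or under a floor of 3 counts, so no fold was given.

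Promoter sequence was read for a feature that the choice of genes did not use. RefSeq promoters on GRCh38, the 250 bases before and 50 bases after the annotated start of transcription, were matched by symbol for 31 of the 35 genes. SQLE, FDFT1, ACAT2 and ABCG1 had no entry. Searched on both strands were TCACNCCAC, the core of a sterol regulatory element, CCAAT, the box bound by NF-Y, GGGCGG, a box bound by Sp1, and GGAATG, a motif bound by TEAD factors. Matches of different motifs may share bases. Only the exact letters were counted, so the absence of a match does not show that a promoter lacks such an element. For a sterol gene with several promoter entries only the first was read, whereas the shares given beside count every entry. SREBF2 was the only one of the 31 with the sterol element core, which 1.02% of the 13941 promoter entries of tested genes hold and 1.13% of all 35116 entries. CCAAT was present in 12 of 16 enzyme promoters and in 6 of the other 15, beside 35% of the entries of tested genes. GGGCGG was in 14 of 16 and 12 of 15, beside 66.6%, and GGAATG in 3 of 16 and 2 of 15, beside 11.5%.
The 250 bases before the start are shown for SREBF2, which holds the core, for INSIG1, which fell most, and for the lowest 2 enzymes of each part of the pathway among those read. They are written 5′ to 3′ on the strand of the gene, with the sterol element core and CCAAT (or its complement) in capitals.
SREBF2, chr22:41832855-41833104, plus strand: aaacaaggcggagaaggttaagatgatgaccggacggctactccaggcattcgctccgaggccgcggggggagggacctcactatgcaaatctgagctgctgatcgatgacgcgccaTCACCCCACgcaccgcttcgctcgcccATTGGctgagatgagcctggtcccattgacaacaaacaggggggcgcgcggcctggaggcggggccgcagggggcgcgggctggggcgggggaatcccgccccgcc
INSIG1, chr7:155297628-155297877, plus strand: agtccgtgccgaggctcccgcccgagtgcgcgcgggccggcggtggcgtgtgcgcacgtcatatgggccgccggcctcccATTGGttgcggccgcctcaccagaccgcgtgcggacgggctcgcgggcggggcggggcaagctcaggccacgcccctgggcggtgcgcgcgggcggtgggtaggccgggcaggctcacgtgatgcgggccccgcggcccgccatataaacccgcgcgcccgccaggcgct
MVK, chr12:109573544-109573793, plus strand: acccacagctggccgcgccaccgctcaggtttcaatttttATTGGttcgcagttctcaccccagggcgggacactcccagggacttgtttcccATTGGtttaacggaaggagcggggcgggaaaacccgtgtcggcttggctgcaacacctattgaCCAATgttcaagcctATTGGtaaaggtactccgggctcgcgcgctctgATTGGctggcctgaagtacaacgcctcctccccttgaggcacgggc
HMGCS1, chr5:43313413-43313662, minus strand: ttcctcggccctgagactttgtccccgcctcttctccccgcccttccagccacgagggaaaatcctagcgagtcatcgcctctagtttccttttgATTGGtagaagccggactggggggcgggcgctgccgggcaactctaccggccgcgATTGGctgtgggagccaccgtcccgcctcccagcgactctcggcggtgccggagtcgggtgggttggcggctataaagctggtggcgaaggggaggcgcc
MSMO1, chr4:165327419-165327668, plus strand: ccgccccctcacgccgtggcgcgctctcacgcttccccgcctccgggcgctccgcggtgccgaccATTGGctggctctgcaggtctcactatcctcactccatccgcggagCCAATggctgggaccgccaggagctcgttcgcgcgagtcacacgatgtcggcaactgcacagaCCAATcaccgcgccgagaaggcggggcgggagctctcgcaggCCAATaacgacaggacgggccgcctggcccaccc
CYP51A1, chr7:92134478-92134727, minus strand: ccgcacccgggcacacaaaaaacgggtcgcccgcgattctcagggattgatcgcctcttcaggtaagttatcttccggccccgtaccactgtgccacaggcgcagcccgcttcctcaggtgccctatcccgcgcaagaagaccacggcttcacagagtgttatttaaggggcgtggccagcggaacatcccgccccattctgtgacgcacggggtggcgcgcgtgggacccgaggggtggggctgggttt
The starts are those of the RefSeq entries and can differ from the ends of the GENCODE loci. The sequences shown for MVK and CYP51A1 lie within the GENCODE loci of these genes. Those for INSIG1, HMGCS1 and, by its last bases, MSMO1 lie partly within theirs. In SREBF2 the core begins at position -133 from the start and a CCAAT box on the opposite strand at -106. MVK held 5 CCAAT boxes, MSMO1 held 4, HMGCS1 held 2, INSIG1 held 1 and CYP51A1 held none, and the log2 fold changes of MSMO1 and CYP51A1 were -2.02 and -1.97. Among members that did not fall, SCAP, MBTPS1, GGPS1, NR1H2, NR1H3 and ABCA1 had no CCAAT box in the window and APOE had 1. Of those that fell, IDI1, PMVK, CYP51A1, INSIG2, LRP8, NPC1 and MBTPS2 had none either. A match describes letters in this window and not binding.

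**Figure D4:**
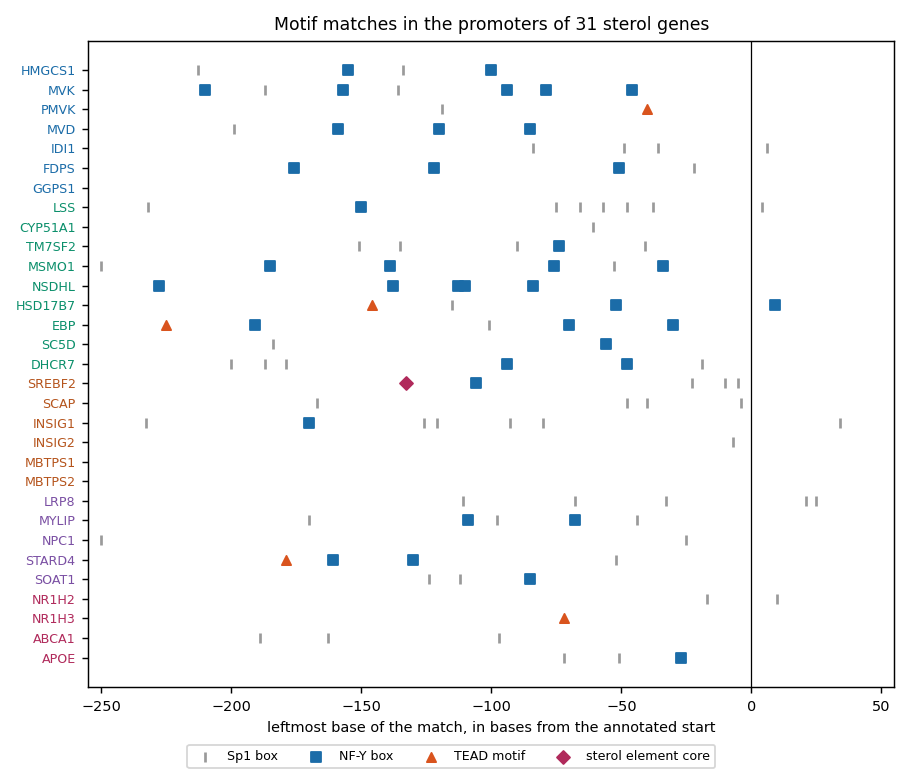
Matches of 4 motifs in the promoters of 31 sterol genes, by the distance in bases of the leftmost matched base from the annotated start (vertical line at 0), with gene names coloured by role. Blue squares (CCAAT) lie in most enzyme rows, 12 of 16, and the sterol element core (diamond) lies in the SREBF2 row.

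Other genes of sterol metabolism were taken from a list by role, of which 68 of 71 were in the table and 59 were tested. At an adjusted p of 0.05 or less 22 were lower and 19 higher, beside 36.4% and 36.3% of all genes tested. Called lower were 8 and called higher 7, beside 8.93% and 9.24%, so these counts lay near those of all genes, and the median log2 fold change was 0.0021. Of 8 other synthesis and side factors tested, 6 were lower and 1 higher at that adjusted p, and of 13 genes of the isoprenoid branch beyond GGPS1, 4 were lower and 4 higher. A difference between these roles was not tested.
Lowest among those named here were SCARB1, a receptor for high-density lipoprotein, at -1.45 (SE 0.0653), TMEM97, which binds NPC1, at -1.42 (SE 0.1299), and NCEH1, a cholesteryl ester hydrolase, at -1.40 (SE 0.0782). SCARB1 had 31.1 and 33.8 RPKM in shCtl and 10.6 and 12.2 RPKM in shM2-3, with no overlap. Highest were CYP39A1, an oxysterol hydroxylase, at 1.70 (SE 0.281), FNTB, a subunit of farnesyltransferase, at 1.69 (SE 0.224), DOLK, dolichol kinase, at 1.38 (SE 0.168), ABCA7, a lipid transporter, at 1.24 (SE 0.121), and RXRA, a partner receptor of LXR, at 1.18 (SE 0.104). CYP39A1 had 0.506 and 0.584 RPKM in shCtl and 1.71 and 1.69 RPKM in shM2-3, so it entered the test only through the group where it is high. RXRA had 1.67 and 2.09 RPKM in shCtl and 4.12 and 4.01 RPKM in shM2-3. FNTB had counts of 118 and 62 with shCtl, against 341 and 302 with shM2-3, and its shCtl replicates lay well apart. Each of these 8 was called. SREBF1, the paralogue of SREBF2 that also uses SCAP and was looked up after values had been seen, had 15.98 and 17.04 RPKM in shCtl and 19.3 and 18.9 RPKM in shM2-3. Its log2 fold change was 0.28 (SE 0.0491), with an adjusted p of 1.75e-04 from edgeR, opposite in sign to that of SREBF2.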

How the data were processed

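RNA-seq of 4 ES-2 libraries (shCtl and shM2-3, n = 2 each) was analysed. Gene values come from Partek 7.18 with RefSeq transcripts, run by the authors on paired reads of 150 bases that HISAT2 2.0.4 had placed on hg38 without ambiguity and at a mapping quality of at least 10. Estimated counts were deposited without normalization, and whole numbers make up 42.4% to 48.6% of a library's values. RPKM values were deposited by the authors beside them.

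After rounding, edgeR 4.0.16 (R 4.3.3) was run with TMM factors and its quasi-likelihood test, without a block, on the 12157 genes whose RPKM exceeded 1 somewhere. The procedure was also run on simulated counts, in which few genes changed, by large amounts and evenly in both directions. That run does not cover weak changes, genes with few reads or data in which most genes change. The standard error (SE) is the log2 fold change divided by the square root of F. With 2 libraries per group an SD comes from only a pair of libraries. Genes with few reads carry added counting error. Alternatives were total counts or RLE factors, DESeq2 1.42.0, a likelihood ratio test, limma 3.58.1 on log2(RPKM + 0.1) and log2(RPKM + 1), other filters, no rounding, a fold limit of 1.5, a replicate block, and leaving out 1 library at a time.

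Loci come from GENCODE release 44 and promoters from RefSeq. The members, lists and motifs were chosen with earlier results of these data known. All 35 members were named, and of the other sterol genes the called ones, up to the 5 lowest and 5 highest. Some genes that this rule would name are not reported here. Promoters were to be shown for enzymes with the sterol element core, and since none held it, the choice of those shown was made with the matches and values known.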

Additional observations from a re-analysis of the deposited data

How the results depend on the processing

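All 34 sterol genes kept their sign in the 14 alternative fits, and 473 of 476 values stayed on the same side of an adjusted p of 0.05. The exceptions came with 1 library left out: APOE lost it without shM2-3 replicate 2 (1.45), and GGPS1 (0.26, without shCtl replicate 2) and NR1H3 (0.44, without shM2-3 replicate 2) gained it. The number called lower was 14 in the main analysis and 22 at a fold limit of 1.5. Whatever their p-value, 19.1% of all genes tested had a log2 fold change at or below -0.6, which is near that limit. The share at or below 0.6 was 81.1%. At the fold limit of 2, the number called lower was 15 with total counts and 16 with limma on log2(RPKM + 0.1). The number called higher was 1, and it was 3 at the limit of 1.5 and 0 with limma on log2(RPKM + 1). APOE was the gene lost with limma on log2(RPKM + 1), where 3 sterol genes were still higher at an adjusted p of 0.05 or less. Of the other sterol genes, 8 were called lower (15 at a limit of 1.5) and 7 higher (3 with limma on log2(RPKM + 1)). Total counts in place of TMM factors shifted the median of all genes by -0.035. The labels do not say whether same-numbered libraries were prepared together. Deviations of same-numbered libraries had a correlation of -0.0016 over 11672 genes, so no shared replicate effect was seen. With a replicate block the counts were 14 called lower and 1 called higher. Promoter counts were the same with only the 250 bases before the start. Few reads limit what can be said of APOE and ABCG1.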

Other observations

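Genes that share exonic bases with a sterol gene moved in either direction, and reads of such a pair cannot be assigned by strand here. STARD4-AS1, antisense to STARD4, had counts of 106 and 137 with shCtl, against 480 and 391 with shM2-3, and rose with a log2 fold change of 1.70 (SE 0.145) while STARD4 fell. MMAB, which acts on cobalamin and lies opposite MVK, had counts of 642 and 623 with shCtl, against 179 and 145 with shM2-3, lower by 4.31-fold. In all, 13 of the 35 sterol genes share exonic bases with another gene of the table. Among them, FDPS overlaps RUSC1-AS1 (log2 fold change 0.33), IDI1 overlaps IDI2-AS1 (not tested) and NR1H2 overlaps NAPSA (not tested). SREBF2-AS1 had counts of 40 and 75 with shCtl, against 66 and 42 with shM2-3, few beside those of SREBF2. How much these partners contributed to the sterol gene counts was not tested.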
